A study of Rattus norvegicus with 24 samples.

Results

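Myoepithelial cells form the outer, basal layer of mammary ducts. They carry the contractile machinery of smooth muscle and squeeze milk along the ducts when oxytocin reaches their receptor. The 7 genes described here are known from that cell, though not from it alone. Tp63 encodes the transcription factor p63 of basal and stratified epithelia. Acta2, Myh11, Cnn1, Tagln and Mylk encode proteins of the smooth muscle contractile apparatus, and Oxtr encodes the oxytocin receptor. The 7 genes were chosen by name, and all probe sets annotated to exactly 1 of them were taken. That gave 10 probe sets of the 31042 tested on the rat array and 7 of the 14217 genes it names. The choice was made with earlier results of these data known, so counts among the 10 are descriptions.

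The arrays hold total RNA of whole abdominal mammary gland pairs from male and female Sprague-Dawley rats. From postnatal day 21 (weaning) to postnatal day 33, subcutaneous osmotic pumps delivered 17β-estradiol at 0, 0.1, 1 or 10 µg/kg/day, and glands were taken on the last day. Each of the 8 groups of sex and dose has 3 arrays, 24 in all. The rats carry no transgene, and the control of each sex is its group at 0 µg/kg/day. The labels do not say that each array is a separate animal, and p-values therefore cover only how far arrays of a group differ, which may be technical.

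The deposited values are logarithms, read here as log2, that the data show to be centred for each probe set within each sex. A value therefore gives an array's distance from the middle of its own sex and not a level. Differences between doses within a sex are kept, and so are differences of those differences between the sexes. Which gene was more abundant, whether males and females differed in level, and whether a marker was present at all could not be read from these values. The sex labels could not be checked for the same reason. Array medians ran from -0.02 to 0.01 and the SD over probe sets from 0.19 to 0.49, the highest being in female replicate 4 at 0.1 µg/kg/day. Transcripts made by liver cells, such as albumin, averaged above 1 on 4 arrays: female replicate 1 and male replicates 2 and 3 at 0 µg/kg/day, and male replicate 7 at 1 µg/kg/day. These 4 are called the arrays with liver transcripts, or liver arrays, below. The name stands for this distance only, and whether other arrays hold such transcripts could not be read from centred values.

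In the contractile cell, oxytocin binding to Oxtr releases calcium, calcium-calmodulin activates myosin light chain kinase (Mylk), and the kinase lets smooth muscle myosin (Myh11) pull on alpha smooth muscle actin (Acta2). Calponin (Cnn1) and transgelin (Tagln) bind the actin filaments. The 5 contractile genes share control by serum response factor and its myocardin partners, which act through a DNA element called the CArG box. p63 keeps basal cells of the mammary gland and of the skin in their basal state. None of the genes belongs to the myoepithelium alone: vascular smooth muscle makes the contractile proteins and epidermis makes p63. Which cells gave the Oxtr values was not measured. In males those values did not run with the average of the 5 contractile genes (Pearson's r = -0.07).

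Promoter windows for 5 of the 7 genes were taken from RefSeq (build GRCr8), each 300 bases long, with 250 bases before the annotated start of transcription and 50 after. Myh11 and Tagln were not in that table. Those of Acta2, Cnn1, Oxtr and Tp63 are shown because these 4 genes carried every call against control at a single dose. Capitals mark 2 kinds of match, searched on both strands and not overlapping here: the CArG box with up to 1 of its 6 inner bases not A or T, and GGTCA, the shorter repeat unit that estrogen receptors recognise. On the other strand that unit reads TGACC. The windows lie at chr1:241172454-241172753 on the minus strand (Acta2), chr8:28908187-28908486 on the plus strand (Cnn1), chr4:147170450-147170749 on the minus strand (Oxtr) and chr11:88554128-88554427 on the minus strand (Tp63).
Acta2: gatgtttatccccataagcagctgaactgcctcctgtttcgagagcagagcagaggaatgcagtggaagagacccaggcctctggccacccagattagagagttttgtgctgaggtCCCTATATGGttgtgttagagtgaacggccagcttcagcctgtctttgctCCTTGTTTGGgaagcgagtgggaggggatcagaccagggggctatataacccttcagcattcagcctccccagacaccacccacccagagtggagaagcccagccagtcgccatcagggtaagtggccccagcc
Cnn1: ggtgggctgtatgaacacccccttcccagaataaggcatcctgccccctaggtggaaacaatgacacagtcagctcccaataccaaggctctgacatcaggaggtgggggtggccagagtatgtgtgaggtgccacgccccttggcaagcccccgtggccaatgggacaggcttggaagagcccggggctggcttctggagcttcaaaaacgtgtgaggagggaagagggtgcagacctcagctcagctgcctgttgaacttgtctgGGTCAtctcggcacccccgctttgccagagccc
Oxtr: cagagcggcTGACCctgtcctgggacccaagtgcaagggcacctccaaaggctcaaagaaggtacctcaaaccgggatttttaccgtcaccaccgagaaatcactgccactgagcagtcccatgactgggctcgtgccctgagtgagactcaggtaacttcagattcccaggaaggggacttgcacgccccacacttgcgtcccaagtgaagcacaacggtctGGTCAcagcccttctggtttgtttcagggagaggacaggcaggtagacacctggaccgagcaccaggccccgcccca
Tp63: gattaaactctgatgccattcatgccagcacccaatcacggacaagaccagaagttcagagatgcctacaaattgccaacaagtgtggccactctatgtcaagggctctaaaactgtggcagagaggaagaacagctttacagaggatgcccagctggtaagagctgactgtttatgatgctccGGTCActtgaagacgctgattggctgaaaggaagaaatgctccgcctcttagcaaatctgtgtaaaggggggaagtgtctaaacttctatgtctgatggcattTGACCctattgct

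The Acta2 window holds 2 such CArG matches, beginning at positions -134 and -84 from the start. Windows with at least 1 such match made up 9.42% of the 33469 promoters in the table, and those with a CArG box whose 6 inner bases are all A or T made up 1.64%. The Cnn1 window held neither. GGTCA or its complement stood in the Cnn1, Oxtr and Tp63 windows but not in that of Acta2, against 40.5% of all promoters, so its presence is common. The Oxtr window begins transcription 1224 bases inside the gene's outer start and the Tp63 window 366 bases inside, since each gene has more than 1 start. Each window shows 1 start, and which start these glands used was not measured. A match is a run of letters and says nothing of binding in these glands.

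Of the 10 probe sets, 4 changed between males given 1 µg/kg/day and control males: Acta2, Cnn1 and the Tp63 probe set 1369108_at rose, and Oxtr fell. Of these, 2 also differed from control males at 10 µg/kg/day: Tp63 was again higher and Oxtr again lower. None of the contractile probe sets passed there. In females 1 probe set changed, Acta2, higher at 10 µg/kg/day than in control females. At 0.1 µg/kg/day none changed in either sex. These counts stand against 3.63% of all probe sets passing in males at 1 µg/kg/day, 17.5% in males at 10 µg/kg/day and 1.86% in females at 10 µg/kg/day (limma, adjusted p under 0.05).

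**Figure D1:**
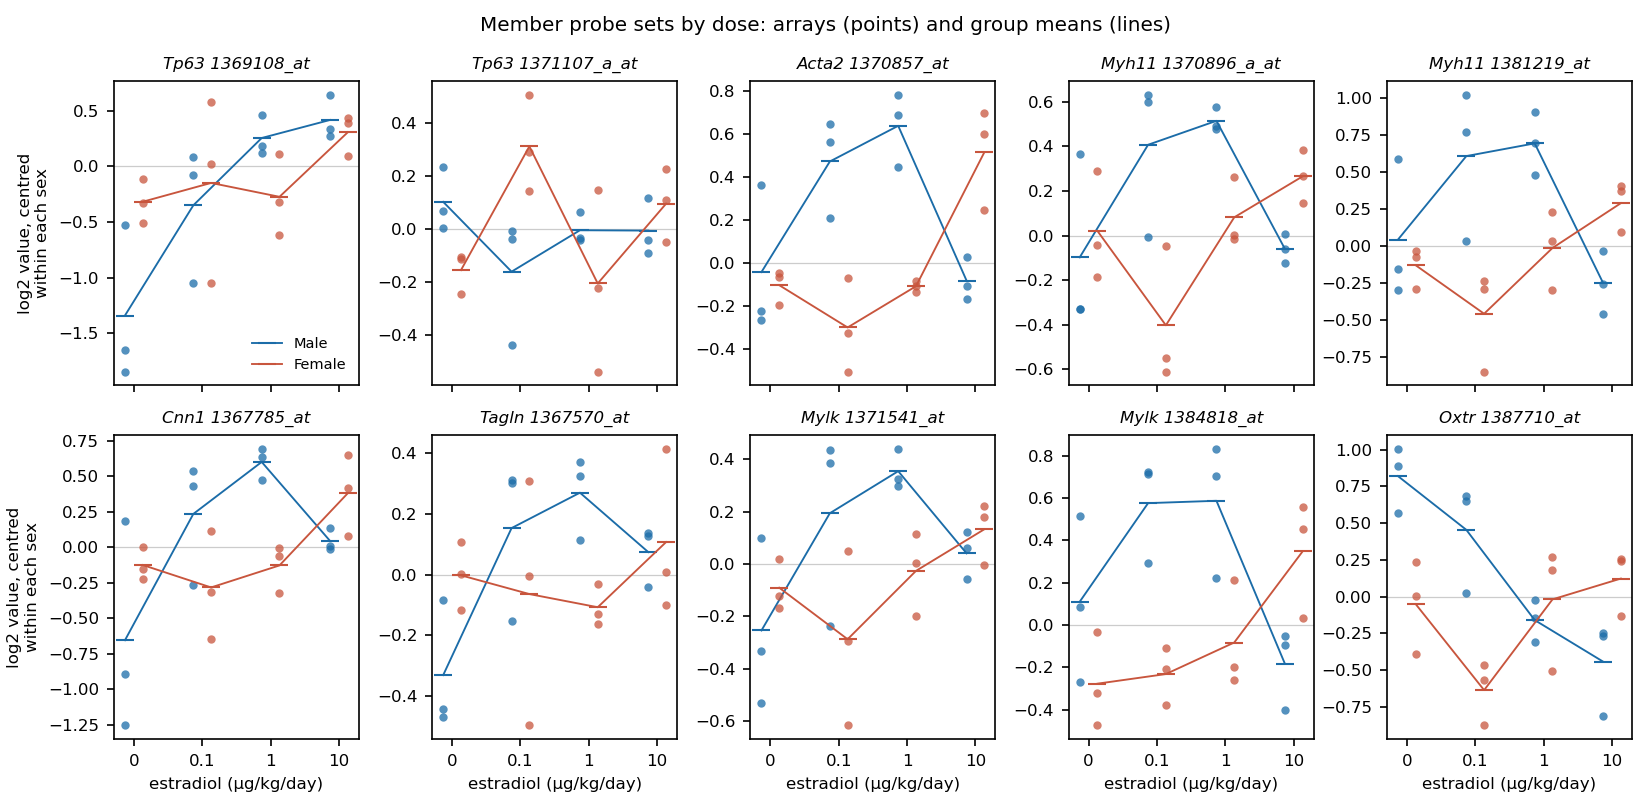
Value of each of the 10 probe sets (log2, centred within each sex, vertical axis) on each array (points) by estradiol dose in µg/kg/day (horizontal axis), with lines through the group means of 3 arrays, males left of females at each dose. In males Acta2 stood highest at 1 µg/kg/day (0.45 to 0.78) and the Oxtr mean was lower at each higher dose, reaching -0.44 at 10 µg/kg/day.

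The Tp63 probe set 1369108_at read -1.85, -1.65 and -0.53 on the control male arrays, -1.05, 0.08 and -0.08 at 0.1 µg/kg/day, 0.19, 0.12 and 0.46 at 1 µg/kg/day, and 0.34, 0.64 and 0.27 at 10 µg/kg/day. All 6 arrays of the higher doses lay above all 3 control arrays, and among the controls replicate 3 stood well above the other two. Tp63 was 3.39-fold higher at 10 µg/kg/day than in control males (log2 difference 1.76 ± 0.36 SE, adjusted p = 0.00271). It was 3.03-fold higher at 1 µg/kg/day (1.60 ± 0.36 SE, adjusted p = 0.0215), and the difference between these doses was 0.16, with a 95% interval from -0.60 to 0.92. The lowest dose gave a difference of 0.99 ± 0.36 SE (adjusted p = 0.36), and its arrays overlapped the control. The order of the group means in males thus followed the dose, -1.34, -0.35, 0.26 and 0.42, but only the 2 higher doses were separable from the control.

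Leaving out any 1 array kept the call for Tp63 at 10 µg/kg/day, with differences from 1.51 to 2.17. The call at 1 µg/kg/day held without control replicate 3 (2.01, adjusted p = 0.00555) and without replicate 8 (1.67, adjusted p = 0.048). After quantile normalization within each sex it was lost (1.54, adjusted p = 0.0551). It was also lost without control replicate 1 (adjusted p = 0.139), control replicate 2 (0.0761), replicate 7 (0.0662) or replicate 9 (0.108).

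In females the same probe set read -0.11, -0.51 and -0.33 in the control, -1.05, 0.58 and 0.02 at 0.1 µg/kg/day, 0.12, -0.62 and -0.32 at 1 µg/kg/day, and 0.39, 0.44 and 0.10 at 10 µg/kg/day. The 3 arrays at 10 µg/kg/day were above the 3 control arrays, but the difference of 0.63 ± 0.36 SE did not pass (adjusted p = 0.514). The male difference at 10 µg/kg/day exceeded the female one by 1.13 ± 0.51 SE, which did not pass either (adjusted p = 0.24).

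The second Tp63 probe set, 1371107_a_at, went its own way. It spanned -0.09 to 0.12 in males at 10 µg/kg/day and 0.01 to 0.24 in control males, a difference of -0.11 ± 0.14 SE (adjusted p = 0.648). Over the 12 male arrays the 2 probe sets had a Pearson's r of -0.38, and over the 12 female arrays 0.31. With both averaged into 1 value for the gene, the difference at 10 µg/kg/day in males was 0.83 (adjusted p = 0.00694). In females its widest difference was 0.47 ± 0.14 SE at 0.1 µg/kg/day, where all 3 arrays (0.29, 0.51 and 0.14) were above the control arrays (-0.25, -0.10 and -0.11) but the test did not pass (adjusted p = 0.229). Tp63 has several transcripts, and which of them each probe set reads is not given in the sources used here.

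Oxtr moved the opposite way in males. Its values were 0.89, 0.57 and 1.00 on the control arrays, 0.03, 0.65 and 0.68 at 0.1 µg/kg/day, -0.31, -0.03 and -0.14 at 1 µg/kg/day, and -0.27, -0.25 and -0.81 at 10 µg/kg/day. All arrays of the 2 higher doses lay below all arrays of the 2 lower doses. Oxtr fell by 1.26 ± 0.22 SE at 10 µg/kg/day, which is 2.40-fold lower than in control males (adjusted p = 8.16e-04). It fell by 0.98 ± 0.22 SE at 1 µg/kg/day (adjusted p = 0.0217), while the lower dose of 0.1 µg/kg/day gave -0.37 ± 0.22 SE (adjusted p = 0.49). The step between 10 and 1 µg/kg/day was -0.28 ± 0.22 SE, with an interval from -0.75 to 0.18, so these neighbours could not be separated.

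The fall of Oxtr at 10 µg/kg/day kept its call without each of the 6 arrays in turn, between -1.39 and -1.08. That at 1 µg/kg/day held without control replicate 2 (adjusted p = 0.0352) and without replicate 8 (0.0443). After quantile normalization within each sex it was lost (-0.99, adjusted p = 0.0596). Without single arrays it was lost for control replicate 1 (0.109), control replicate 3 (0.0559), replicate 7 (0.0903) or replicate 9 (0.0859).

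In females Oxtr read 0.00, 0.23 and -0.39 in the control, -0.47, -0.57 and -0.88 at 0.1 µg/kg/day, 0.18, 0.27 and -0.50 at 1 µg/kg/day, and 0.26, -0.13 and 0.24 at 10 µg/kg/day. The lowest dose lay below the control on all 3 arrays (-0.58 ± 0.22 SE, adjusted p = 0.392), and the 2 higher doses overlapped it. The difference at 10 µg/kg/day was 0.17 ± 0.22 SE (adjusted p = 0.821). The male difference from control minus the female one was -1.44 ± 0.32 SE at 10 µg/kg/day, and it passed the test (adjusted p = 0.0302). Oxtr was the 1 member of 10 that did so, against 1.28% of all probe sets. The call was lost in 6 of the 12 fits that left out 1 array: male control replicate 1 or 3, male replicate 12 at 10 µg/kg/day, female control replicate 3, or female replicate 10 or 12 at 10 µg/kg/day. The same contrast at 1 µg/kg/day was -1.01 ± 0.32 SE (adjusted p = 0.359).

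**Figure D2:**
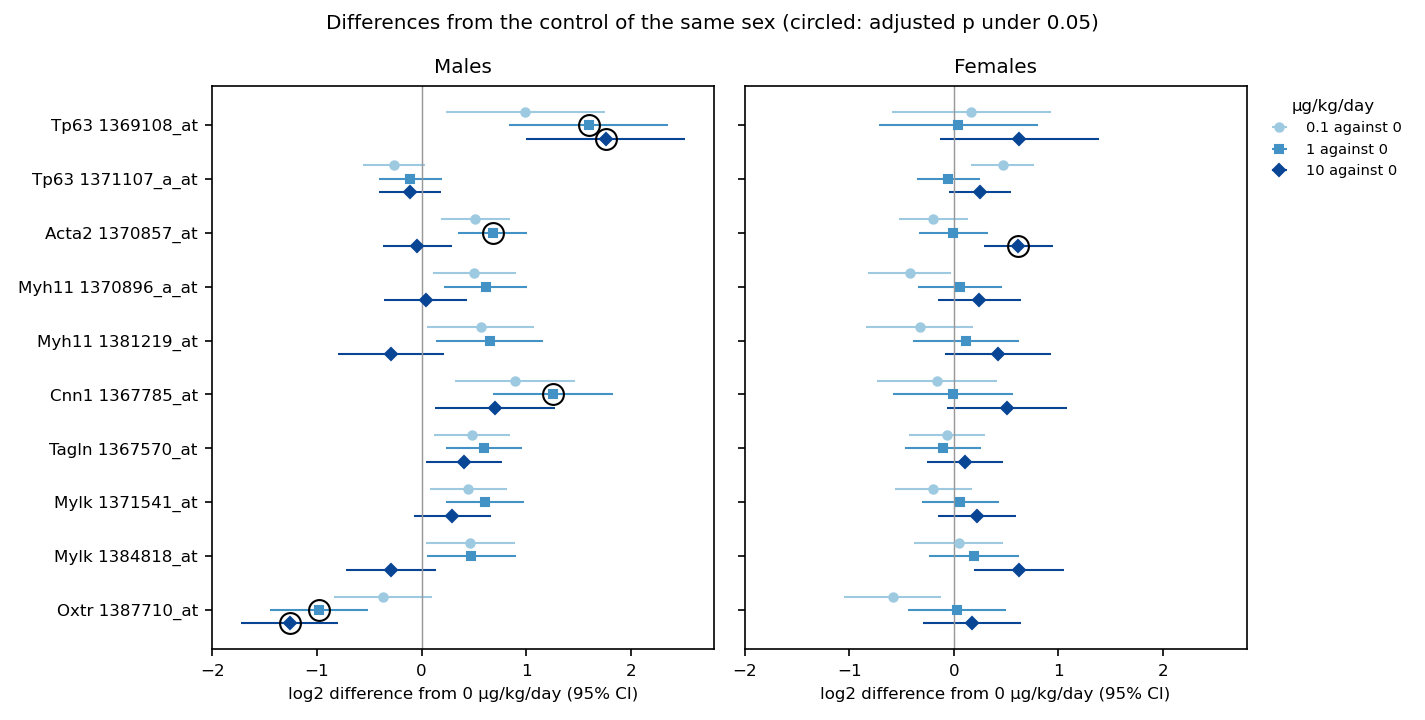
Log2 difference from 0 µg/kg/day of the same sex (horizontal axis) with its 95% interval from limma for each probe set (vertical axis), at 0.1, 1 and 10 µg/kg/day, in males (left) and females (right), with a ring where the adjusted p was under 0.05. Tp63 1369108_at reached 1.76 and Oxtr -1.26 in males at 10 µg/kg/day, and in females Acta2 at 10 µg/kg/day (0.62) carried the single ring.

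The contractile genes had their highest male group means at 1 µg/kg/day, although the single highest arrays of both Myh11 probe sets were at 0.1 µg/kg/day. Acta2, the actin of the contractile filament, read -0.22, -0.27 and 0.36 in control males, 0.21, 0.65 and 0.56 at 0.1 µg/kg/day, 0.45, 0.69 and 0.78 at 1 µg/kg/day, and -0.11, -0.17 and 0.03 at 10 µg/kg/day. The arrays at 1 µg/kg/day were all above the controls, and those at 10 µg/kg/day lay within the control range. Acta2 rose 1.60-fold at 1 µg/kg/day (0.68 ± 0.16 SE, adjusted p = 0.0238) and was within error of control at 10 µg/kg/day (-0.04, 95% interval -0.37 to 0.29). The difference between 10 and 1 µg/kg/day was tested on its own and gave -0.72 ± 0.16 SE with an adjusted p of 0.0528, just outside the threshold.

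Cnn1, which encodes calponin, read -1.25, -0.89 and 0.18 in control males, -0.26, 0.54 and 0.43 at 0.1 µg/kg/day, 0.48, 0.63 and 0.69 at 1 µg/kg/day, and -0.01, 0.13 and 0.01 at 10 µg/kg/day. Control replicate 3 again stood more than 1 unit above the other controls. Cnn1 rose 2.39-fold at 1 µg/kg/day (1.26 ± 0.27 SE, adjusted p = 0.0177). Its difference at 10 µg/kg/day was 0.70 ± 0.27 SE, which did not pass (adjusted p = 0.0856) but did so without control replicate 3 (1.12, adjusted p = 0.00322). Of the 7 contractile probe sets, Cnn1 had the largest difference from control at each of the 3 doses in males.

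Both rises at 1 µg/kg/day turned on single arrays. Acta2 kept its call without control replicate 3 (0.88, adjusted p = 0.00387) and without replicate 7 (adjusted p = 0.0404). It lost it without control replicate 1 (0.142), control replicate 2 (0.0905), replicate 8 (0.0693) or replicate 9 (0.123). Cnn1 kept its call without control replicate 3 (1.68, adjusted p = 8.63e-04) and lost it without any of the other arrays, with adjusted p between 0.0509 and 0.128. Over the 10 probe sets the number called at 1 µg/kg/day was 7 without control replicate 3, 2 without replicate 8, 1 without control replicate 2 or replicate 7, and 0 without control replicate 1 or replicate 9.

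The other contractile probe sets also had their highest male mean at 1 µg/kg/day, without passing the test at any single dose. Myh11, the smooth muscle myosin heavy chain, has 2 probe sets. The first, 1370896_a_at, read -0.33, -0.33 and 0.37 in control males, -0.01, 0.63 and 0.60 at 0.1 µg/kg/day, 0.49, 0.58 and 0.48 at 1 µg/kg/day, and -0.12, 0.01 and -0.06 at 10 µg/kg/day, and the second, 1381219_at, had its highest mean (0.69) at 1 µg/kg/day as well. Their differences from control at 1 µg/kg/day were 0.61 ± 0.19 SE (adjusted p = 0.0799) and 0.65 ± 0.24 SE (adjusted p = 0.145), and at 10 µg/kg/day they were 0.04 ± 0.19 and -0.29 ± 0.24 SE. Tagln, which encodes transgelin, differed by 0.60 ± 0.17 SE at 1 µg/kg/day (adjusted p = 0.0597) and by 0.40 ± 0.17 SE at 10 µg/kg/day (adjusted p = 0.114). For Tagln all 3 arrays of either dose were above all 3 controls (-0.44, -0.47 and -0.08).

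Mylk, the kinase that switches myosin on, also has 2 probe sets that parted at the top dose. Their differences from control at 1 µg/kg/day were 0.61 ± 0.18 SE (1371541_at, adjusted p = 0.0611) and 0.48 ± 0.20 SE (1384818_at, adjusted p = 0.21). The first stood at 0.29 ± 0.18 SE at 10 µg/kg/day and the second at -0.29 ± 0.20 SE, so that the gene's direction at that dose depends on the probe set. The second read -0.09, -0.05 and -0.40 at 10 µg/kg/day, below all 3 arrays at 1 µg/kg/day (0.22, 0.83 and 0.71). Counting both genes with 2 probe sets, all 7 contractile probe sets had a positive difference from control males at 0.1 and at 1 µg/kg/day, and 4 of 7 at 10 µg/kg/day. All 7 were lower at 10 than at 1 µg/kg/day.

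Over all 10 probe sets the median difference from control males was 0.49 at 0.1 µg/kg/day, 0.61 at 1 µg/kg/day and -6.49e-04 at 10 µg/kg/day, while the median over all probe sets tested was -0.01 at each of these doses. The 3 comparisons share the same 3 control arrays, so a control array that is high or low moves all of them together. At 0.1 µg/kg/day 8 of the 10 had an unadjusted p under 0.05, as had 3703 of all 31042, and 0 passed after adjustment in either set. Between 10 and 1 µg/kg/day the median over the 10 was -0.44. There 6 of them had all 3 arrays at 10 µg/kg/day below all 3 at 1 µg/kg/day, against 9.72% of all probe sets. None passed the adjusted test, against 0.387% of all. The smallest adjusted p was that of Acta2, and 4 of the 10 had an unadjusted p under 0.05, as had 2920 of all 31042.

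A test for any difference among the 4 doses, which does not prefer one dose, called 6 of the 10 probe sets in males, against 8.87% of all. These were Oxtr (adjusted p = 0.00334), Acta2 (0.00794), Tp63 1369108_at (0.0111), Cnn1 (0.027), Myh11 1381219_at (0.0333) and Mylk 1384818_at (0.0359). Tagln (0.105), Mylk 1371541_at (0.119), Myh11 1370896_a_at (0.0671) and Tp63 1371107_a_at (0.621) did not pass. The count was 8 without control replicate 3 or without replicate 4 at 0.1 µg/kg/day, 3 without control replicate 1, replicate 8 or replicate 9, 2 without control replicate 2, and between 4 and 6 without any other array.

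**Figure D3:**
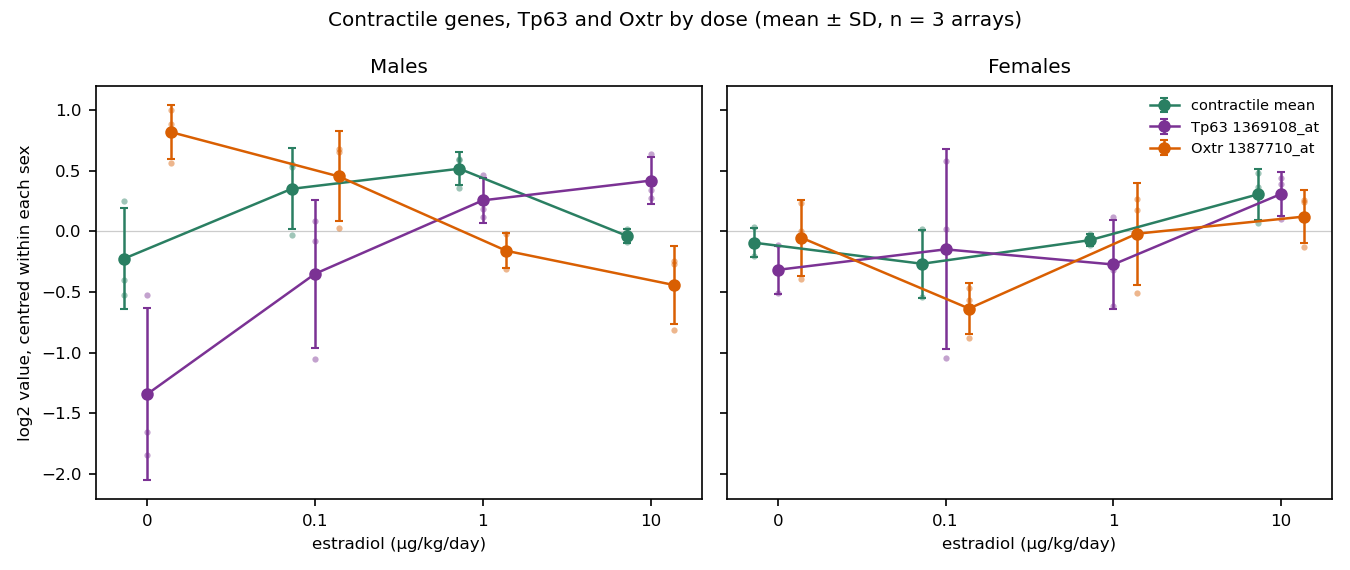
Mean ± SD over 3 arrays (log2, centred within each sex, vertical axis) of the average of the 5 contractile genes, of Tp63 1369108_at and of Oxtr by dose in µg/kg/day (horizontal axis), in males (left) and females (right), with single arrays as small points. In males the contractile average was 0.52 at 1 µg/kg/day and -0.04 at 10 µg/kg/day while Tp63 stayed high and Oxtr low.

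The average of the 5 contractile genes condenses this. In males it was -0.23 ± 0.42 in the control, 0.35 ± 0.33 at 0.1 µg/kg/day, 0.52 ± 0.14 at 1 µg/kg/day and -0.04 ± 0.06 at 10 µg/kg/day (SD, n = 3). The control males were spread most, from -0.53 to 0.25, and their replicate 3 alone lay above 0. The males at 10 µg/kg/day were spread least. In females the average was -0.09 ± 0.12 in the control, -0.27 ± 0.28 at 0.1 µg/kg/day, -0.07 ± 0.05 at 1 µg/kg/day and 0.30 ± 0.21 at 10 µg/kg/day. The group at 10 µg/kg/day had the highest mean in females, and in males a mean below those at 0.1 and 1 µg/kg/day.

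In females Acta2 read -0.07, -0.20 and -0.05 in the control, -0.33, -0.07 and -0.51 at 0.1 µg/kg/day, -0.08, -0.11 and -0.13 at 1 µg/kg/day, and 0.70, 0.60 and 0.25 at 10 µg/kg/day. The 3 arrays at 10 µg/kg/day were above all 9 others. Acta2 rose 1.54-fold over control females at that dose (0.62 ± 0.16 SE, adjusted p = 0.0499), at the edge of the threshold. Without replicate 12 at that dose the adjusted p was 0.0277, and without any of the other 5 arrays it was between 0.111 and 0.234. The dose test in females called the same single probe set (adjusted p = 0.0361), against 1.21% of all. It was lost without any of the 3 controls, replicate 6 at 0.1 µg/kg/day, replicate 7 at 1 µg/kg/day, or replicate 10 or 11 at 10 µg/kg/day, and 2 were called without replicate 9 at 1 µg/kg/day.

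All 10 probe sets had a positive difference at 10 µg/kg/day in females, with a median of 0.34 against -0.01 over all probe sets, and 6 had no overlap with the control arrays, against 9.67% of all. After Tp63 1369108_at, given above, Mylk 1384818_at had the next largest difference, 0.63 ± 0.20 SE (adjusted p = 0.137), with arrays at 0.56, 0.45 and 0.04 against -0.47, -0.32 and -0.04 in the control. Cnn1 differed by 0.51 ± 0.27 SE (adjusted p = 0.47) and Tagln by 0.11 ± 0.17 SE (adjusted p = 0.862). At 1 µg/kg/day no difference from control females was larger than 0.19 in size, and at 0.1 µg/kg/day 7 of the 10 were negative. Neither dose had a call among the 10, nor did 10 against 1 µg/kg/day, where 0.267% of all probe sets passed. For 1 and 0.1 µg/kg/day 0 of all 31042 passed, with 847 and 3083 at an unadjusted p under 0.05, and 0 and 3 of the 10. The count over all probe sets at 0.1 µg/kg/day was not firm: in females it was 204 without replicate 4 at that dose, 21 without replicate 5 and 1738 with array weights, and in males 1204 with the beta-actin covariate described below.

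Whether males and females differed was tested directly, as the male difference from control minus the female one. For Acta2 it was -0.66 ± 0.22 SE at 10 µg/kg/day (adjusted p = 0.133) and 0.69 ± 0.22 SE at 1 µg/kg/day (adjusted p = 0.367). For Mylk 1384818_at it was -0.92 ± 0.29 SE at 10 µg/kg/day (adjusted p = 0.108). None of the contractile probe sets passed at any dose. In that contrast 0.0483% of all probe sets passed at 1 µg/kg/day, and 6 of the 10 and 3059 of all 31042 had an unadjusted p under 0.05. At 0.1 µg/kg/day 0 of all 31042 passed, and 7 of the 10 and 2266 of all had an unadjusted p under 0.05.

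The contractile probe sets followed one another from array to array. Over the 12 male arrays Pearson's r between the 21 pairs of the 7 contractile probe sets ran from 0.59 to 0.96 with a median of 0.85, and over the 12 female arrays from 0.42 to 0.89 with a median of 0.75. The arrays share their dose groups and each array's mix of tissues, so these are descriptions. Tp63 1369108_at went with Tagln (r = 0.86), Cnn1 (0.85) and Mylk 1371541_at (0.81) in males, but less with Myh11 1381219_at (0.33) and Mylk 1384818_at (0.23). Oxtr had r = -0.62 with Tp63 1369108_at in males and -0.07 with the contractile average. In females Oxtr had r = 0.38 with that average.

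**Figure D4:**
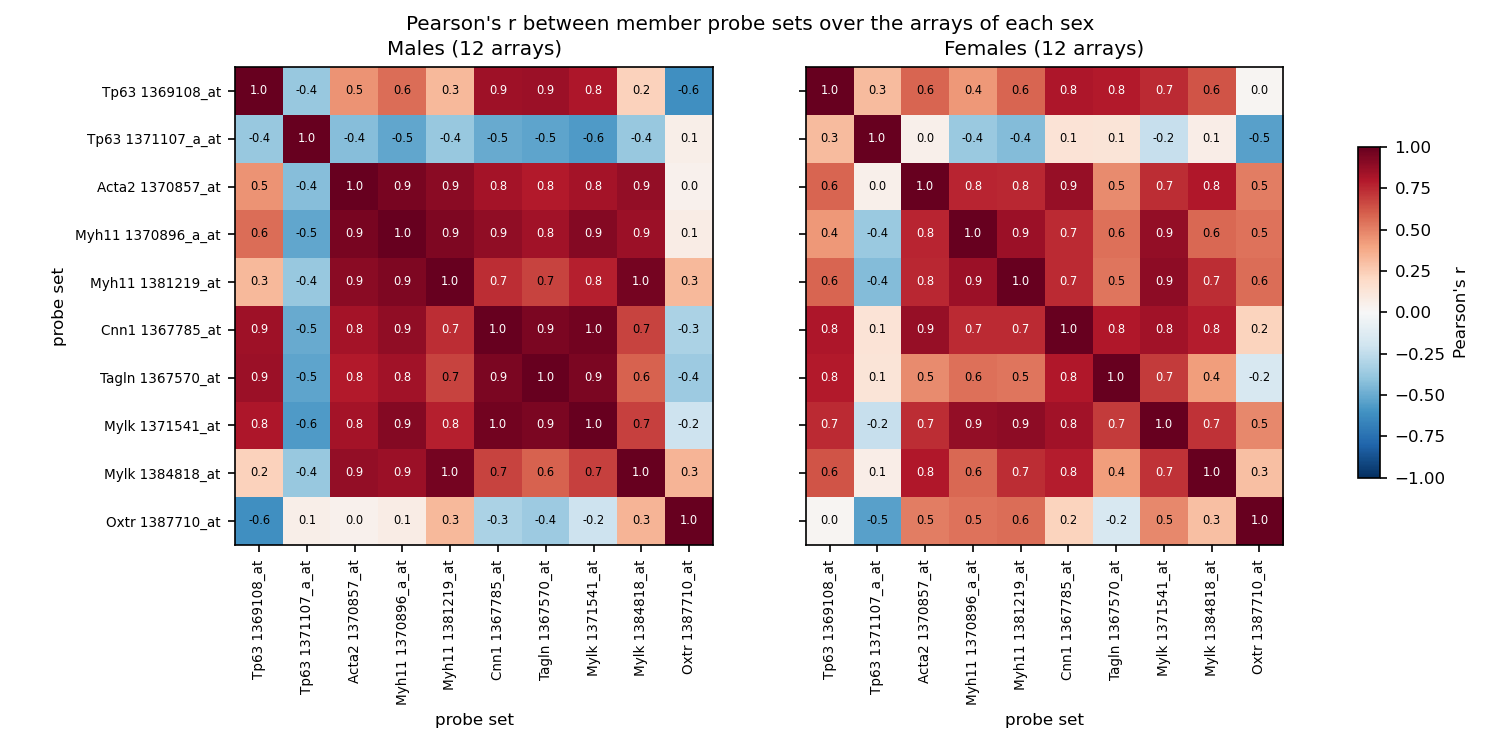
Pearson's r (colour and number) between each pair of the 10 probe sets over the 12 male arrays (left) and the 12 female arrays (right). The 7 contractile probe sets form a block of positive values in both sexes, with a median of 0.85 in males and 0.75 in females, and Tp63 1371107_a_at and Oxtr stand outside it in males.

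Over all 24 arrays, the named gene whose values were most like the contractile average was Actg2 (r = 0.96), the gamma smooth muscle actin, followed by Lama1 (0.92), a laminin chain of basement membranes, Eps8l1 (0.92), Fbxl22 (0.91) and Agtrap (0.90). Actg2 rose by 1.04 in males at 1 µg/kg/day (adjusted p = 0.0207) and had a difference of 0.17 at 10 µg/kg/day. The genes most like Tp63 1369108_at were Ptk7 (0.98), Col17a1 (0.98), a hemidesmosome collagen of basal keratinocytes, Ripk4 (0.97) and Nectin4 (0.97 for both of its probe sets). Those most like Oxtr were the potassium channel Kcnk3 (0.89), Smoc1 (0.86), leptin (Lep, 0.85), Dst (0.85) and Enpp1 (0.85). The probe set Tp63 1371107_a_at had looser companions, led by Kcnd2 (0.80). Taken by sex, the contractile average was closest to Fbxl22 in males (0.98), with Actg2 also at 0.98. In females its closest genes were Tnfrsf11a (0.99), Irf2bpl (0.98), Slc45a3 (0.98), Podxl (0.97) and Myo5b (0.97). Neither Actg2 nor Lama1 was among these.

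Other genes known from basal and myoepithelial cells gave a mixed picture. Of 37 probe sets for 16 genes, 7 were higher and 5 lower in males at 10 µg/kg/day than in control males. That is 32.4% called, against 17.5% of all probe sets, and the median was -0.06. Keratins of the basal layer were among the higher ones, with Krt14 up by 2.26 ± 0.40 SE (adjusted p = 8.40e-04) and Krt17 up by 1.89 ± 0.38 SE (adjusted p = 0.00207), as was the receptor Egfr at 1.33 ± 0.14 SE. Igfbp5, which binds insulin-like growth factors, fell by 1.25 ± 0.21 SE (adjusted p = 5.60e-04). In males at 1 µg/kg/day 3 of the 37 were higher and 0 lower (8.11%, against 3.63% of all). In females at 10 µg/kg/day 1 was higher, Egfr at 0.58 ± 0.14 SE (adjusted p = 0.044). That is 2.7% of the list, near the 1.86% of all probe sets.

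Genes that p63 is known to regulate were counted in 28 probe sets for 15 genes. In males at 10 µg/kg/day 9 were higher and 3 lower (42.9% called, against 17.5% of all probe sets), with a median of 0.23. At 1 µg/kg/day 8 were higher and 0 lower (28.6%, against 3.63% of all), with a median of 0.21. In females at 10 µg/kg/day 1 was higher and 2 were lower (10.7%, against 1.86% of all), the lower ones both for Igfbp3, with a median of 0.06. The laminin chain Lamb3 rose by 1.25 ± 0.20 SE at 10 µg/kg/day (adjusted p = 4.18e-04), the desmosomal protein Dsp by 1.86 ± 0.40 SE (adjusted p = 0.0037) and the integrin Itga3 by 0.48 ± 0.09 SE (adjusted p = 0.00119). Igfbp3 fell in males (-1.36 ± 0.24 SE, adjusted p = 8.49e-04) and in females (-1.49 ± 0.24 SE for its other probe set, adjusted p = 0.00375) at that dose. In females Bmp7 was the 1 of 28 that rose (0.57 ± 0.14 SE, adjusted p = 0.0381). Several of these genes, like Tp63 itself, are also made by the epidermis.

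Further genes of the contractile apparatus and of its control changed in both directions in males at 10 µg/kg/day. Of 38 probe sets for 18 apparatus genes, 8 were higher and 2 lower (26.3% called, against 17.5% of all), with a median of -0.02, and at 1 µg/kg/day 4 were higher and 0 lower (10.5%, against 3.63% of all). Tropomyosins rose at 10 µg/kg/day (Tpm1 by 0.75 ± 0.12 SE, adjusted p = 2.65e-04, and Tpm2 by 0.64 ± 0.17 SE, adjusted p = 0.0126), and so did Itga8, an integrin of contractile cells, in males (0.98 ± 0.24 SE) and in females (0.97 ± 0.24 SE, adjusted p = 0.0396). Vinculin (Vcl) fell by 0.54 ± 0.14 SE in males (adjusted p = 0.0137). Of 37 probe sets for 21 genes that control contraction, 3 were higher and 7 lower in males at 10 µg/kg/day (27% called), with a median of -0.20. The difference between these lists was not tested. The phospholipase Plcb4 fell by 1.02 ± 0.16 SE, Rgs2, which dampens signals of receptors such as Oxtr, by 0.89 ± 0.18 SE, and Ppp1r14a, an inhibitor of myosin phosphatase, by 0.62 ± 0.13 SE. The phosphatase subunit Ppp1cb rose by 0.49 ± 0.10 SE in males (adjusted p = 0.00356) and by 0.43 ± 0.10 SE in females (limma, adjusted p = 0.0388). In females at 10 µg/kg/day Itga8 was the 1 apparatus probe set of 38 called (2.63%, near the 1.86% of all). Of the 37 for control of contraction, 1 was higher and 1 lower (5.41%). The lower one was Plcb4, by 0.45 ± 0.08 SE for its other probe set (limma, adjusted p = 0.0091). Each named gene is given by its probe set with the smallest p, and genes with several probe sets often had others that did not pass.

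The gland is a mixture, and markers of other cells moved with dose in the same arrays. In bulk tissue, fewer cells of a type and less RNA per cell cannot be told apart. Of 24 luminal epithelial probe sets, 13 were higher and 0 lower in males at 1 µg/kg/day (54.2% called, against 3.63% of all probe sets). At 10 µg/kg/day 8 were higher and 1 lower (37.5%, against 17.5% of all). The list's mean was 0.30 to 0.53 at 1 µg/kg/day and 0.12 to 0.51 at 10 µg/kg/day, against -0.98 to -0.15 in control males. Control replicate 3, high for the contractile genes, was also highest of the controls there. The part of this list in the contractile and Tp63 results was not tested.

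Markers of pericytes and vascular smooth muscle, which also make the contractile proteins, went the other way. Of 18 probe sets, 13 were lower and 0 higher in males at 10 µg/kg/day (72.2% called, against 17.5% of all probe sets). At 1 µg/kg/day 5 were lower (27.8%, against 3.63% of all). The list's mean was -0.39 to -0.23 at 10 µg/kg/day and -0.11 to 0.08 at 1 µg/kg/day, against 0.27 to 0.39 in control males. Mcam fell by 1.68 ± 0.15 SE and Rgs5, a pericyte marker, by 0.79 ± 0.09 SE at 10 µg/kg/day. In females at that dose 2 of 18 were lower (11.1%, against 1.86% of all), both for Mcam, of which the larger fall was 0.86 ± 0.11 SE. Endothelial markers fell alongside, 15 of 19 probe sets at 10 µg/kg/day in males (78.9%, against 17.5% of all). Their part in the values of the contractile genes at 10 µg/kg/day was not tested.

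Keratinocyte and hair follicle markers rose in males at 10 µg/kg/day, 9 of 15 probe sets (60%, against 17.5% of all). Their mean was 1.07 to 2.29 there, against -0.38 to -0.27 in control males. The middle dose had 1 of 15 higher (6.67%, near the 3.63% of all) and a mean from -0.24 to 0.93. With this mean as a covariate, the Tp63 difference in males was 1.29 at 10 µg/kg/day (adjusted p = 0.16) and 1.45 at 1 µg/kg/day (adjusted p = 0.054), and neither passed. The Oxtr fall kept its call at both doses, at -1.63 and -1.09.

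White adipocyte markers fell in males, 24 of 27 probe sets at 10 µg/kg/day (88.9%, against 17.5% of all) and 15 of 27 at 1 µg/kg/day (55.6%, against 3.63%). In females 16 of 27 fell at 10 µg/kg/day (59.3%, against 1.86%). In males their mean was 0.39 to 0.53 in the control, -0.07 to 0.16 at 0.1 µg/kg/day, -0.32 to -0.19 at 1 µg/kg/day and -0.79 to -0.56 at 10 µg/kg/day, so that it follows dose without overlap. With it in the fit the Oxtr difference at 10 µg/kg/day was -0.02 and that of Tp63 1.13, neither passing (adjusted p of 1.00 and 0.994). Dose and this list cannot be told apart in males, and 7 of all 31042 probe sets passed in that fit. In females the mean of this list was 0.23 to 0.50 in the control and -0.44 to -0.21 at 10 µg/kg/day, and the Oxtr difference was 0.17. Whether the sexes differ in how Oxtr goes with this list was not tested. The 3 prime minus 5 prime difference of the beta-actin probe sets, a sign of RNA quality, was -0.02 to 0.16 in males at 10 µg/kg/day, against -0.56 to -0.06 in control males. With it as a covariate Oxtr stood at -1.04 (adjusted p = 0.0789) and Tp63 at 1.34 (adjusted p = 0.165).

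**Figure D5:**
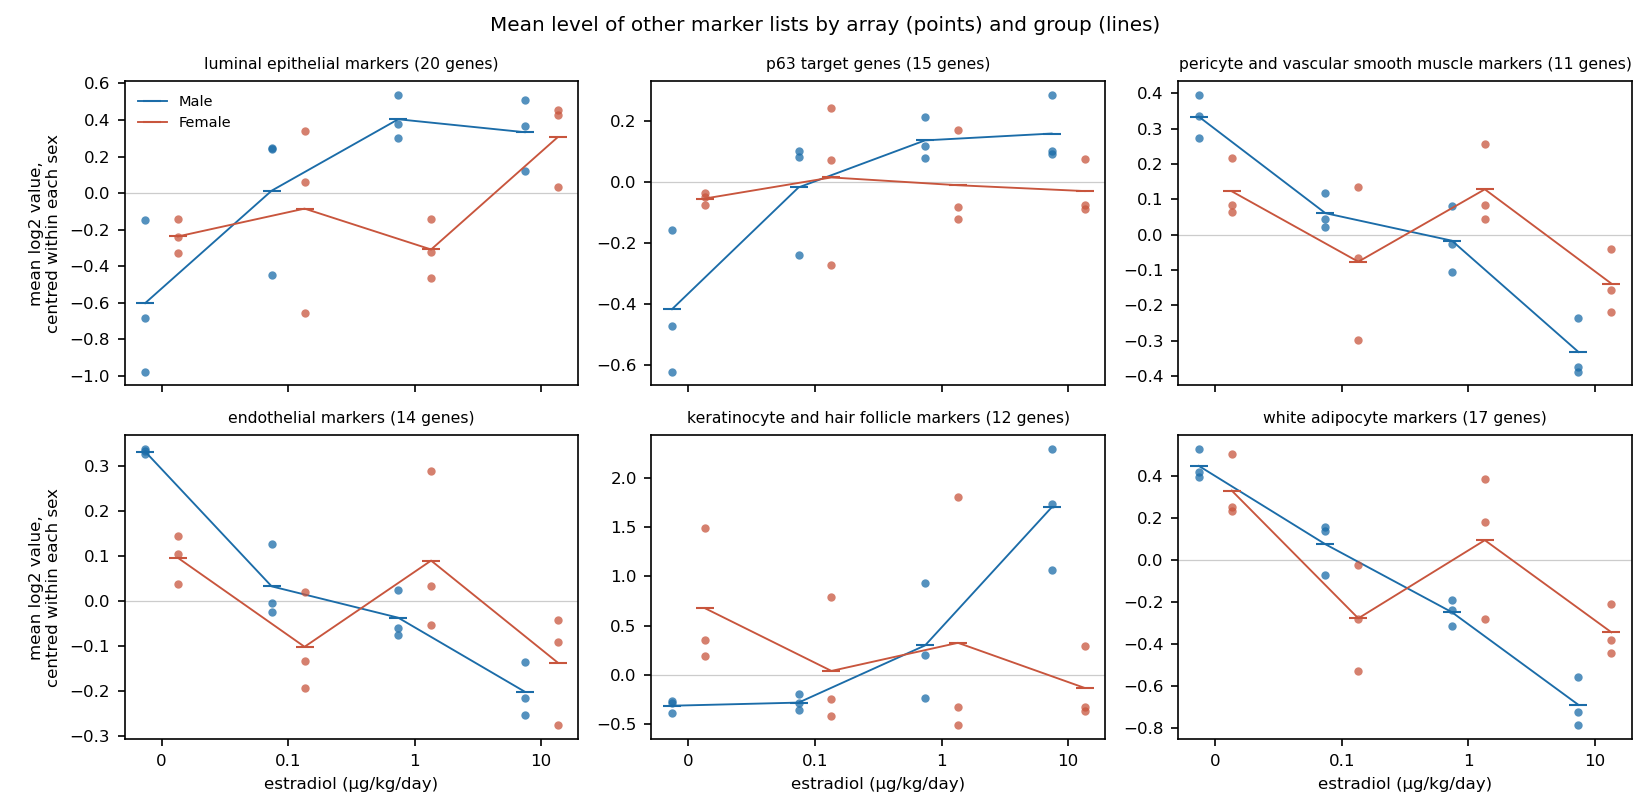
Mean value over the genes of 6 marker lists (log2, centred within each sex, vertical axis) on each array (points) by dose in µg/kg/day (horizontal axis), with lines through group means, males left of females at each dose. In males the luminal mean was highest at 1 µg/kg/day (0.30 to 0.53), the keratinocyte mean at 10 µg/kg/day (1.07 to 2.29), and the pericyte, endothelial and adipocyte means were lower at each higher dose.

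The arrays with liver transcripts include 2 of the 3 control males. Without the 4 such arrays, Tp63 1369108_at in males at 10 µg/kg/day differed by 2.27 and Oxtr by -1.33. Each is against the 1 control male left, replicate 1, which is assumed to vary as the other groups do. Replicate 1 was 1 of the 2 widest arrays and the lowest control for Tp63 1369108_at (-1.85) and Cnn1 (-1.25), which enlarges their differences. At 1 µg/kg/day the differences from that array were 1.92 for Cnn1, 0.96 for Acta2, 2.14 for Tp63 and -0.97 for Oxtr, and Tp63 and Oxtr did not pass. Acta2 in females at 10 µg/kg/day did not pass without the arrays with liver transcripts.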

How the data were processed

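The deposited series table holds 31099 rat Affymetrix probe sets on 24 arrays as signed log values, read here as log2. The labels' protocols describe total RNA, biotin-labelled by in vitro transcription, and the submitters' processing notes name GCOS with no role. No source used here gives the log base, summarization or normalization. Per probe set they are centred, males and females apart: 41.9% of probe sets in males and 45.3% in females have their nearest values above and below 0 equal in size (tolerance 2e-06).

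After leaving out 57 control probe sets, limma 3.58.1 in R 4.3.3 (lmFit and eBayes, 8 group means, 16 residual degrees of freedom) was fitted to all 31042 probe sets, with Benjamini-Hochberg adjustment over them and a threshold of 0.05. Genes were named through the platform annotation: 20826 probe sets had 1 gene, 436 several and 9780 none. A further 5 probe sets named for both Acta2 and Actc1 were left out of the members. The comparisons were each dose against 0 and 10 against 1 within a sex, the male minus the female difference, and a moderated F test over the doses. The members and the marker lists were chosen with earlier results of these data known. Genes named from a list were among its called genes of smallest p (at most 4), and for some lists fewer or none were named. Genes given as most alike were among those of the 5 probe sets of highest Pearson's r. Alternatives covered the arrays and groups in the fit, array weights, normalization, covariates, the replicate block and each array left out; leaving out the 2 widest arrays, and the same alternatives for 1 µg/kg/day in males, were added after seeing the data. Same-numbered male and female arrays did not pair throughout. With group means removed, 5 of 12 pairs correlated above 0.1: replicates 4, 5 and 6 (0.59, 0.44 and 0.46) and 10 and 11 (0.45 and 0.56). The lowest pair was at -0.48, and 4 of 12 males correlated best with their own number. The number of arrays limits the precision. The fit was tested on simulated data with 200 shifted probe sets. That simulation drew independent normal noise, with the same spread of a probe set on every array. The arrays here were unequal, with array weights from 0.16 to 3.48, so it says nothing of calls that turn on single arrays.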

Additional observations from a re-analysis of the deposited data

Results flagged for a closer look

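For Oxtr, the oxytocin receptor, the test of the male against the female difference passed at 10 µg/kg/day, but the call depended on single arrays and on the processing. In males the values were -0.27, -0.25 and -0.81 at that dose against 0.89, 0.57 and 1.00 in the control, and in females 0.26, -0.13 and 0.24 against 0.00, 0.23 and -0.39. The male difference minus the female difference was -1.44 ± 0.32 SE (limma, adjusted p = 0.0302). The call was lost in 6 of the 12 fits that left out 1 array. It was also lost after quantile normalization, without the arrays with liver transcripts or the 2 widest arrays, with the keratinocyte, adipocyte or beta-actin covariate, and with the fixed replicate block. At 1 µg/kg/day it was -1.01 ± 0.32 SE (adjusted p = 0.359) and at 0.1 µg/kg/day 0.22 ± 0.32 SE (adjusted p = 0.799).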

How the results depend on the processing

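The calls for Tp63 1369108_at (higher) and Oxtr (lower) in males at 10 µg/kg/day and the 4 calls at 1 µg/kg/day kept their sign under every setting tried, while the number of the 10 probe sets called changed often; beyond what each setting's construction changes, the cause was not tested. Depth does not enter, since arrays give no counts, and the signal over background cannot be read from centred values. In males at 10 µg/kg/day (2 called) the count was 1 with the keratinocyte mean as a covariate and 0 with the adipocyte mean or the beta-actin difference. In males at 1 µg/kg/day (4 called) it was 1 with only the 2 groups fitted or without the 2 widest arrays, 2 without the arrays with liver transcripts, with the keratinocyte covariate or by an unadjusted p under 0.05 and 2-fold, and 0 with the adipocyte covariate. After quantile normalization it was 3, with Acta2 and Cnn1 but neither Tp63 1369108_at nor Oxtr. Between 10 and 1 µg/kg/day in males (0 called) it was 4 with only the 2 groups fitted, 3 with array weights, 2 without the liver arrays or with liver and muscle covariates, and 1 after subtracting array medians, quantile normalization, robust eBayes or leaving out the 2 widest arrays. In females at 10 µg/kg/day (1 called, Acta2) it was 0 with females alone, only the 2 groups, quantile normalization, no liver arrays, the keratinocyte, adipocyte or beta-actin covariate, the 2-fold rule, or a random replicate block. In females at 0.1 µg/kg/day (0 called) it was 1 with array weights.

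For the male minus female difference at 10 µg/kg/day (1 called, Oxtr) the count was 3 with array weights, 2 by the 2-fold rule, and 0 after quantile normalization, without the liver arrays or the 2 widest arrays, with the keratinocyte, adipocyte or beta-actin covariate, or with the fixed replicate block. By the 2-fold rule it was 3 at 1 µg/kg/day and 1 at 0.1 µg/kg/day, where 0 were called. The any-dose test called 6 in males, and 3 with males alone, 1 with the keratinocyte, 0 with the adipocyte and 2 with the beta-actin covariate; in females it called 1, and 2 with array weights and 0 with females alone, quantile normalization, no liver arrays, or the keratinocyte or adipocyte covariate. The replicate block changed no other count of members called, and same-numbered arrays were alike in only some pairs.

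Leaving out each array in turn gave 2 to 3 calls in males at 10 µg/kg/day, 0 to 7 at 1 µg/kg/day, 0 to 0 at 0.1 µg/kg/day and 0 to 1 between 10 and 1 µg/kg/day. In females it gave 0 to 1 at 10 µg/kg/day and 0 in the other comparisons. The male minus female difference gave 0 to 1 at 10 and at 1 µg/kg/day and 0 at 0.1 µg/kg/day, and the any-dose test 2 to 8 in males and 0 to 2 in females. Over all 31042 probe sets the count in males at 10 µg/kg/day ran from 7 with the adipocyte covariate to 8955 with array weights (5419 as reported), at 1 µg/kg/day from 0 to 2375 (1127), and in females at 10 µg/kg/day from 0 to 1218 (577). At 0.1 µg/kg/day it ran from 0 to 1204 in males and from 0 to 1738 in females (0 as reported in both).

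Signs turned for members that did not pass. In males at 10 µg/kg/day Acta2 (-0.04) was 0.14 without the liver arrays, 0.042 with the adipocyte covariate, and -0.15 to 0.16 with each array left out, above 0 without control replicate 3 (0.16) or replicate 11 (0.0021). Myh11 1370896_a_at (0.04) was -0.12 with array weights, -0.086 with liver and muscle covariates, -0.044 with the beta-actin covariate, -0.078 without the 2 widest arrays, -0.13 averaged over both probe sets, and -0.078 to 0.27 with each array left out, below 0 without control replicate 1 or 2. Without the liver arrays Myh11 1381219_at was 0.049 and Mylk 1384818_at 0.089, and averaged over its probe sets Mylk was 9.57e-04. Tagln was -0.051 with the adipocyte covariate, and Tp63 averaged over its probe sets 0.83, against -0.11 for 1371107_a_at. In females at 10 µg/kg/day Tp63 1371107_a_at was -0.029 and Tagln -0.16 with the adipocyte covariate, and Tagln was -0.044 to 0.21 with each array left out, below 0 without replicate 11.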

Other observations

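The genes whose values ran most closely with Tp63 1369108_at over the 12 male arrays were Perp, a desmosomal protein of stratified epithelia (Pearson's r = 0.99), and Krt5, the keratin of basal epithelial cells (0.99). Over the 12 female arrays they were Cdh1, the E-cadherin of epithelial junctions (0.99), and Col17a1, a collagen of the hemidesmosome (0.99). Ptk7 was among the top 5 in both sexes (0.99 in males and 0.98 in females). For Oxtr in males the closest were Kcnk3, a potassium channel (0.96), and Dgat2, an enzyme of triglyceride synthesis (0.96 and 0.96 for its 2 probe sets). For Oxtr in females they were Pcdh19 (0.92), Nacc2 (0.91), Parp16 (0.90), Sash1 (0.88) and Sec16b (0.88). None of these was among the top 5 in males. All these coefficients were picked as the highest on the array, from arrays that share the dose groups, and are descriptions with no test.

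The array also has 5 probe sets annotated to both Acta2 and Actc1, the cardiac actin of striated muscle, which cannot be assigned to 1 gene. In males at 10 µg/kg/day their differences from control ran from -1.44 to -0.08, and in females from 0.11 to 0.86. None passed the test, with adjusted p no lower than 0.323 in males and 0.815 in females.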
